A study of Homo sapiens with 12 samples.

Results

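The genes described here are 37 genes of the Hippo pathway, read in the mechanical memory series of the Cal27 line. They comprise 19 genes whose transcription YAP and TAZ are known to drive and 18 components of the pathway itself. They were chosen by symbol and not by a rule on their values, but with earlier results of these data known. All 37 were found among the 25382 symbols of the deposited count table. All 37 also passed the filter on low counts, which left 15437 symbols for testing. Cal27 is a human tongue squamous cell carcinoma line, labelled as epithelial and wild type in every library. All cells grew on collagen-coated polyacrylamide gels for 5 days of conditioning and 1 day of replating, and RNA was then sequenced in 3 libraries per condition.

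In the stiff-to-soft condition, cells were conditioned on 20 kPa gel and replated on 0.48 kPa gel. In the LPA-to-soft condition, cells received lysophosphatidic acid (LPA), a serum lipid that acts on G protein-coupled receptors, during conditioning on soft gel. In the LPA-to-FAKi condition, LPA conditioning was followed by inhibition of focal adhesion kinase (FAK), which signals from integrin adhesions, during replating. The labels name neither the inhibitor nor its dose. In the soft-to-soft condition, cells stayed on 0.48 kPa gel without treatment. The series calls the first pair of conditions learned and the other pair not learned or forgotten, and asks which transcripts differ between these classes after the shared day on soft gel. All groups are 1 cell line, and the labels do not say whether replicates 1, 2 and 3 were separate cultures. A p-value here reflects the scatter left among libraries once condition, or class for learned against not learned, and replicate number are fitted. This scatter may be technical.

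The Hippo pathway is a kinase relay that holds the coactivators YAP and TAZ out of the nucleus. The MST kinases, with the scaffold SAV1, activate the LATS kinases, with their MOB1 partners, and LATS phosphorylates YAP and TAZ so that they stay in the cytoplasm. On stiff substrates or under contractile tension, YAP and TAZ enter the nucleus, bind the TEAD transcription factors and switch on genes such as CYR61, CTGF and ANKRD1. YAP and TAZ are controlled mainly through their location and stability, so transcript levels of the components do not measure pathway activity. Some targets, including LATS2, AMOTL2 and PTPN14, in turn restrain YAP.

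The TEAD factors recognise the letters GGAATG, and the promoters of CTGF and ANKRD1, the genes most often read as markers of YAP activity, show how these letters are placed. The sequences below are the 250 bases before the transcription start, from RefSeq on GRCh38.p14, each read 5′ to 3′ on the gene's own strand with GGAATG in capitals. The CTGF stretch is chr6:131951373-131951622 on the minus strand, and the ANKRD1 stretch is chr10:90921088-90921337 on the minus strand.
CTGF: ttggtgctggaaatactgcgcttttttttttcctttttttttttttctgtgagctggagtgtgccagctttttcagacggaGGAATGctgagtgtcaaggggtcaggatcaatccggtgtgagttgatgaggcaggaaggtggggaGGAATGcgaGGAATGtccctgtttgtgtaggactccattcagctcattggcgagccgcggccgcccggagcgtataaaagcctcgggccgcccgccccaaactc
ANKRD1: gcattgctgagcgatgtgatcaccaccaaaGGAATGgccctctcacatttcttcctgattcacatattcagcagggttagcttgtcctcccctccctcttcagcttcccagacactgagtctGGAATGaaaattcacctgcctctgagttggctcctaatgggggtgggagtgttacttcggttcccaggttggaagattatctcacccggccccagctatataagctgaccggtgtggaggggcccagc
CTGF held 3 copies, beginning 169, 104 and 95 bases before the start, and ANKRD1 held 2 copies, beginning 220 and 128 bases before it. The table covered 28 of the 37 genes by 40 promoters. No promoter was available for CYR61, ARHGEF17, CRIM1, GADD45A, ASAP1, DOCK5, TEAD1, TEAD4 and STK3, so these genes were not searched. GGAATG was searched on both strands, and copies that overlap were counted separately. It occurred in 7 of 15 target promoters (46.7%), those of CTGF, ANKRD1, AMOTL2, AXL, TGFB2, PTPN14 and NUAK2. It occurred in 2 of 25 component promoters (8.0%), those of AJUBA and YAP1, and in 11.9% of all 35116 promoters in the table. Only 0.0826% of all promoters held 3 copies, as CTGF did. These matches describe letters in a window and were not tied to any binding measurement.

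Library totals ranged from 62953957 to 122311183 counts. Of all counts of 1 to 19, between 96.8% and 97.8% were even numbers in 10 of the libraries. The share was only 42.9% in soft-to-soft replicate 1 and 42.2% in replicate 2, so low counts in those libraries followed another pattern. Results are therefore given below without 1 or both of these libraries where that changes a call. Leaving out both leaves only replicate 3 of soft-to-soft, so that fit cannot decide calls against soft-to-soft. All 10 squamous epithelial markers were detected, and their summed level was between 6739 and 17000 CPM (counts scaled to a fixed library size, with totals adjusted by TMM factors). By condition that sum was 6739 to 13484 CPM in stiff-to-soft, 8139 to 14864 CPM in LPA-to-soft, 8308 to 15944 CPM in LPA-to-FAKi and 11198 to 17000 CPM in soft-to-soft, and its part in the results was not tested. Of the 8 fibroblast markers, COL3A1, DCN, PDGFRA and THY1 stayed below 1 CPM in every library, as did PTPRC, CD3E, CD79A and LYZ of the 6 leukocyte markers and PECAM1, KDR, TEK and ESAM of the 6 endothelial markers. The other markers of these lists exceeded 1 CPM in some libraries. In the fibroblast list these were COL1A1 (12.7 to 30.9 CPM), COL1A2 (0.255 to 3.67), LUM (0 to 2.97) and PDGFRB (0.268 to 1.85). In the leukocyte list they were CD14 (0.999 to 5.43 CPM) and CSF1R (0.621 to 2.85). In the endothelial list they were CDH5 (4.40 to 36.3 CPM) and VWF (1.12 to 4.51). The 3 lists summed to at most 36.4, 7.13 and 38.1 CPM.

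**Figure D1:**
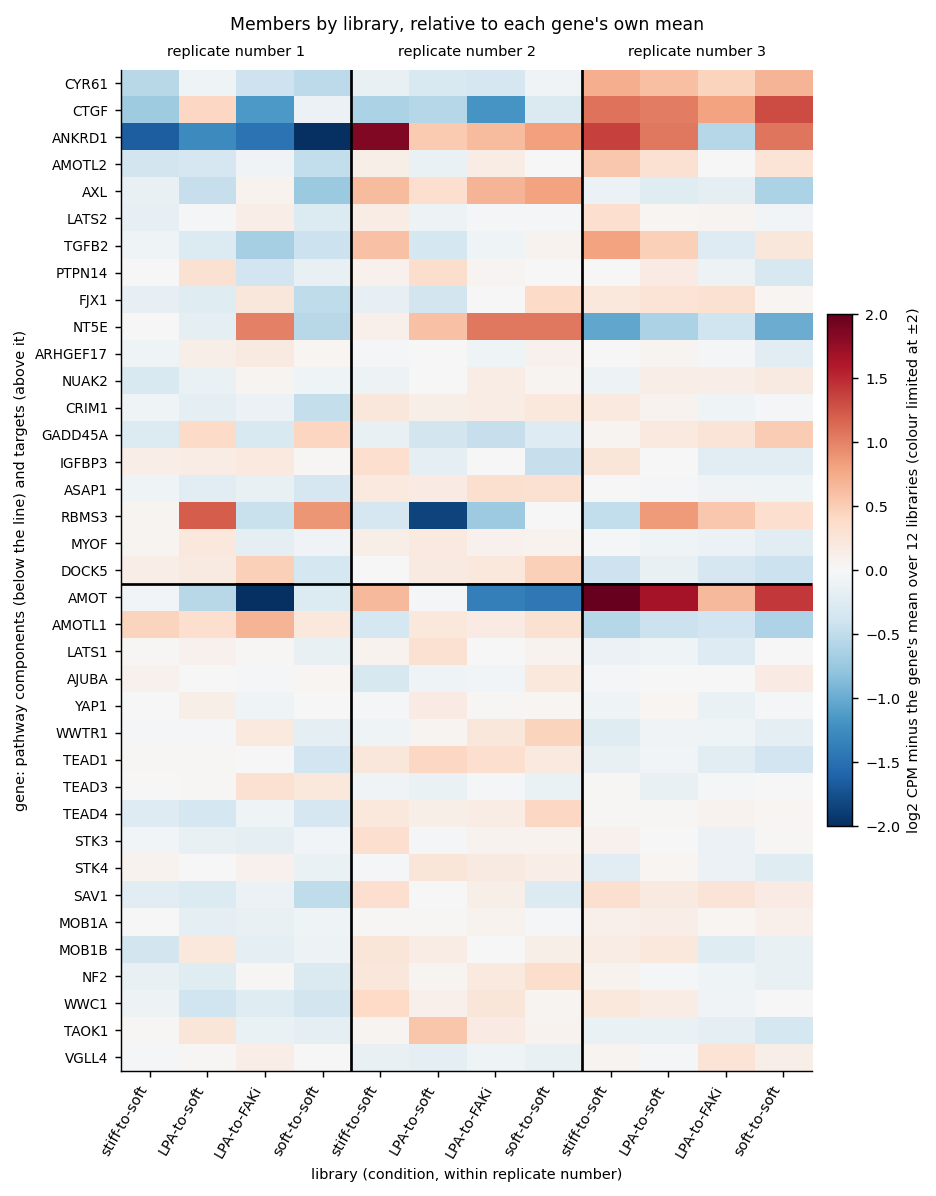
Level of each of the 37 genes in all 12 libraries, as log2 CPM minus that gene's mean over the libraries; rows are genes (targets above the line, components below it) and columns are libraries, grouped by replicate number and then by condition. CYR61 and CTGF are above their mean in the 4 libraries of replicate number 3.

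CTGF stood lowest in LPA-to-FAKi cells, and PTPN14 and YAP1 highest in LPA-to-soft cells, in each of the 3 replicate numbers, but no difference between conditions passed the test in these genes. In each number too, TGFB2, CRIM1, AMOT, STK3 and WWC1 were highest in stiff-to-soft and VGLL4 in LPA-to-FAKi. NUAK2 was likewise lowest in stiff-to-soft, IGFBP3, TEAD1 and SAV1 in soft-to-soft, and TEAD4 in LPA-to-soft. The share of all genes with such an order was not counted. None of the 19 targets and none of the 18 components passed edgeR's quasi-likelihood F test for any difference among the 4 conditions, with replicate number in the model and Benjamini-Hochberg adjustment over all 15437 genes. Over all genes, 0.214% passed this test. Without adjustment, 6 targets and 6 components had p under 0.05, a share of genes to be read against 18.2% over all genes. The lowest adjusted p-values were 0.0905 for AMOT, an angiomotin that binds YAP and holds it at junctions, and 0.0934 for PTPN14, a phosphatase that binds YAP. DESeq2 with the same terms called 8 of the 37 genes, TGFB2, PTPN14, NUAK2, IGFBP3, AMOT, TEAD1, SAV1 and TAOK1, and 8.38% of all genes. As the RNA is from bulk cultures, fewer cells with a transcript and less transcript per cell cannot be told apart in any value below.

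Replicate number separated these genes far more than the conditions did. The F test over the 3 replicate numbers called 13 of 19 targets and 13 of 18 components, together 70.3% of the 37 genes, against 52.3% of all genes. The median share of a gene's variation that lay between replicate numbers was 49.7% for targets, 56.6% for components and 50.5% for all genes. The share between conditions was 15.4% for targets, 24.3% for components and 19.3% for all genes. Conditions took the larger share in 7 of the 37 genes, against 26.8% of all genes. What the numbers stand for is not given in the labels, and the squamous markers moved with them too, with summed levels of 13484 to 17000 CPM in replicates numbered 1, 6739 to 13116 CPM in those numbered 2 and 8241 to 11198 CPM in those numbered 3.

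CYR61 and CTGF, secreted matricellular proteins and the best known YAP targets, both stood highest in replicate 3. CYR61 had 569, 521, 468 and 552 CPM in replicate 3 of the stiff-to-soft, LPA-to-soft, LPA-to-FAKi and soft-to-soft conditions, and between 234 and 327 CPM in the other 8 libraries. CTGF had 282, 269, 231 and 329 CPM in the replicates numbered 3, and between 58.8 and 176 CPM in the other 8 libraries. Neither gene overlapped between replicate 3 and the rest, a pattern seen in 5.29% of all genes. The adjusted p for replicate number was 5.36e-05 for CYR61 and 5.21e-05 for CTGF. For CYR61, 90.9% of the variation lay between replicate numbers and 1.95% between conditions.

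ANKRD1, a nuclear ankyrin repeat protein induced in strained muscle, stood lowest in replicate 1. It had 1.01, 1.32, 1.15 and 0.629 CPM in replicate 1 of the stiff-to-soft, LPA-to-soft, LPA-to-FAKi and soft-to-soft conditions, and between 2.14 and 11.5 CPM in the other 8 libraries, with an adjusted p of 0.000465 for replicate number. AMOT averaged 11.4 ± 4.22 CPM in replicates numbered 3, 3.29 ± 2.26 CPM in those numbered 2 and 2.60 ± 1.40 CPM in those numbered 1 (SD, n = 4 each; edgeR adjusted p = 0.000191). On mean log2 CPM, AMOT differed 5.00-fold between the highest and the lowest number, and ANKRD1 6.13-fold.

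Other genes followed other numbers in all 4 libraries of a number. AXL, a receptor tyrosine kinase, the Arf regulator ASAP1 and the transcription factors TEAD1 and TEAD4 were highest in all libraries numbered 2. VGLL4, which competes with YAP for TEAD, was lowest there. The angiomotin AMOTL1 was lowest in all libraries numbered 3, and ANKRD1, TEAD4 and the upstream scaffold WWC1 were lowest in all libraries numbered 1. Over all genes, 3.25% lay wholly above and 2.6% wholly below in number 2, 5.22% wholly below in number 3 and 8.81% wholly below in number 1. So the targets did not move as 1 block between the numbers. By mean level, 8 targets were highest in number 3, 8 in number 2 and 3 in number 1. The genes that did not pass this test included YAP1, WWTR1, which encodes TAZ, and LATS1.

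**Figure D2:**
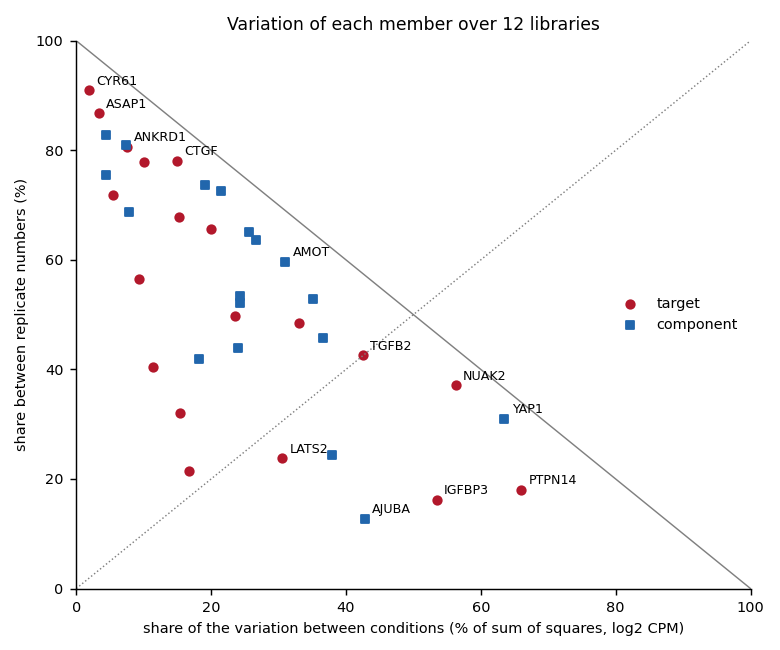
Share of each gene's sum of squares between replicate numbers (vertical, %) against the share between conditions (horizontal, %), for the 19 targets and 18 components; the solid line marks shares that sum to 100% and the dotted line equal shares. CYR61 sits near the top left, with 90.9% between numbers, and PTPN14 and YAP1 lie below the dotted line, with 66.0% and 63.5% between conditions.

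Stiff conditioning was followed by nearly the same CYR61 level as soft conditioning after the day on soft gel. CYR61 had 234, 313 and 569 CPM in stiff-to-soft replicates 1, 2 and 3, and 241, 327 and 552 CPM in the soft-to-soft replicates. The log2 fold change was -0.02 ± 0.12 (SE), with an unadjusted 95% interval of -0.27 to 0.23 and an edgeR adjusted p of 0.981. CTGF had 80.9, 85.1 and 282 CPM in stiff-to-soft, and 122, 109 and 329 CPM in soft-to-soft. It was lower in stiff-to-soft in 3 of 3 replicate numbers, but the groups overlapped, and the log2 fold change of -0.38 ± 0.20 (SE) had an edgeR adjusted p of 0.576. ANKRD1 had 1.01, 11.5 and 8.25 CPM in stiff-to-soft, and 0.629, 5.63 and 6.73 CPM in soft-to-soft. It stood higher in stiff-to-soft in 3 of 3 numbers, with a log2 fold change of 0.63 ± 0.38 (SE), an interval of -0.20 to 1.47 and an edgeR adjusted p of 0.655.

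None of the 37 genes passed the test between stiff-to-soft and soft-to-soft, where 0.583% of all genes did (37 higher and 53 lower). Without adjustment 10 of the 37 had p under 0.05, against 10.2% of all genes, and DESeq2 called 4, TGFB2, IGFBP3, SAV1 and WWC1, all higher in stiff-to-soft, and 2.95% of all genes. Among targets, the log2 fold change was above 0 for 10 and below 0 for 9, with a median of 0.08, and among components it was above 0 for 11 and below 0 for 7, with a median of 0.03. The median over all genes was -0.002. Higher values in 3 of 3 replicate numbers were found for 13 of the 37 genes (background 14.6%) and lower values in 3 of 3 for 5 (background 15.8%).

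The growth factor binding protein IGFBP3 was the only target whose stiff-to-soft libraries all lay above the soft-to-soft ones. It had 4586, 5269 and 4940.2 CPM in stiff-to-soft, and 4242, 3026 and 3569 CPM in soft-to-soft, a log2 fold change of 0.47 ± 0.12 (SE; edgeR adjusted p = 0.119). Without stiff-to-soft replicate 1 it passed, at 0.60 ± 0.10 (SE; edgeR adjusted p = 0.0351), where 0.548% of all genes did, and DESeq2 called it with all libraries. The kinase NUAK2 lay below in every library, with 27.4, 31.7 and 31.7 CPM in stiff-to-soft and 32.1, 35.4 and 38.5 CPM in soft-to-soft (log2 fold change -0.22 ± 0.06, SE; edgeR adjusted p = 0.184). Over all genes, 2.16% lay wholly above and 2.19% wholly below in stiff-to-soft. TGFB2, a ligand of the TGF-beta receptors, had 53.7, 84.9 and 98.9 CPM in stiff-to-soft, and 42.3, 59.6 and 66.1 CPM in soft-to-soft. It was highest in stiff-to-soft of all 4 conditions in each of the 3 replicate numbers, at a log2 fold change of 0.48 ± 0.15 (SE; edgeR adjusted p = 0.209).

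Among the components, AMOT showed the largest difference. It had 3.82, 6.22 and 16.3 CPM in stiff-to-soft, and 3.27, 1.48 and 10.6 CPM in soft-to-soft, a log2 fold change of 0.87 ± 0.33 (SE) with an interval of 0.14 to 1.60 and an edgeR adjusted p of 0.354. The value was 0.46 without soft-to-soft replicate 2 and 1.33 without soft-to-soft replicate 1. It was highest in stiff-to-soft of all conditions in each replicate number, but the groups overlapped. The kinase scaffold SAV1 had 58.1, 85.6 and 85.1 CPM in stiff-to-soft, and 48.1, 56.2 and 76.4 CPM in soft-to-soft (log2 fold change 0.34 ± 0.08, SE; edgeR adjusted p = 0.118). WWC1 had 58.2, 82.6 and 72.4 CPM in stiff-to-soft, and 48.3, 65.0 and 62.7 CPM in soft-to-soft (0.27 ± 0.07, SE; edgeR adjusted p = 0.151). YAP1 itself had 167, 167 and 159 CPM in stiff-to-soft, and 168, 174 and 164 CPM in soft-to-soft, with an interval of the log2 fold change of -0.15 to 0.07. WWTR1 had 94.0, 89.9 and 80.7 CPM in stiff-to-soft, and 83.7, 131 and 84.7 CPM in soft-to-soft, with an interval of -0.41 to 0.09. Without soft-to-soft replicate 2, AXL also passed this comparison, at 0.55 ± 0.09 (SE; edgeR adjusted p = 0.0452), as did 0.26% of all genes. Leaving out both soft-to-soft replicates 1 and 2 leaves only replicate 3 of that condition, so that fit cannot decide any call here.

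**Figure D3:**
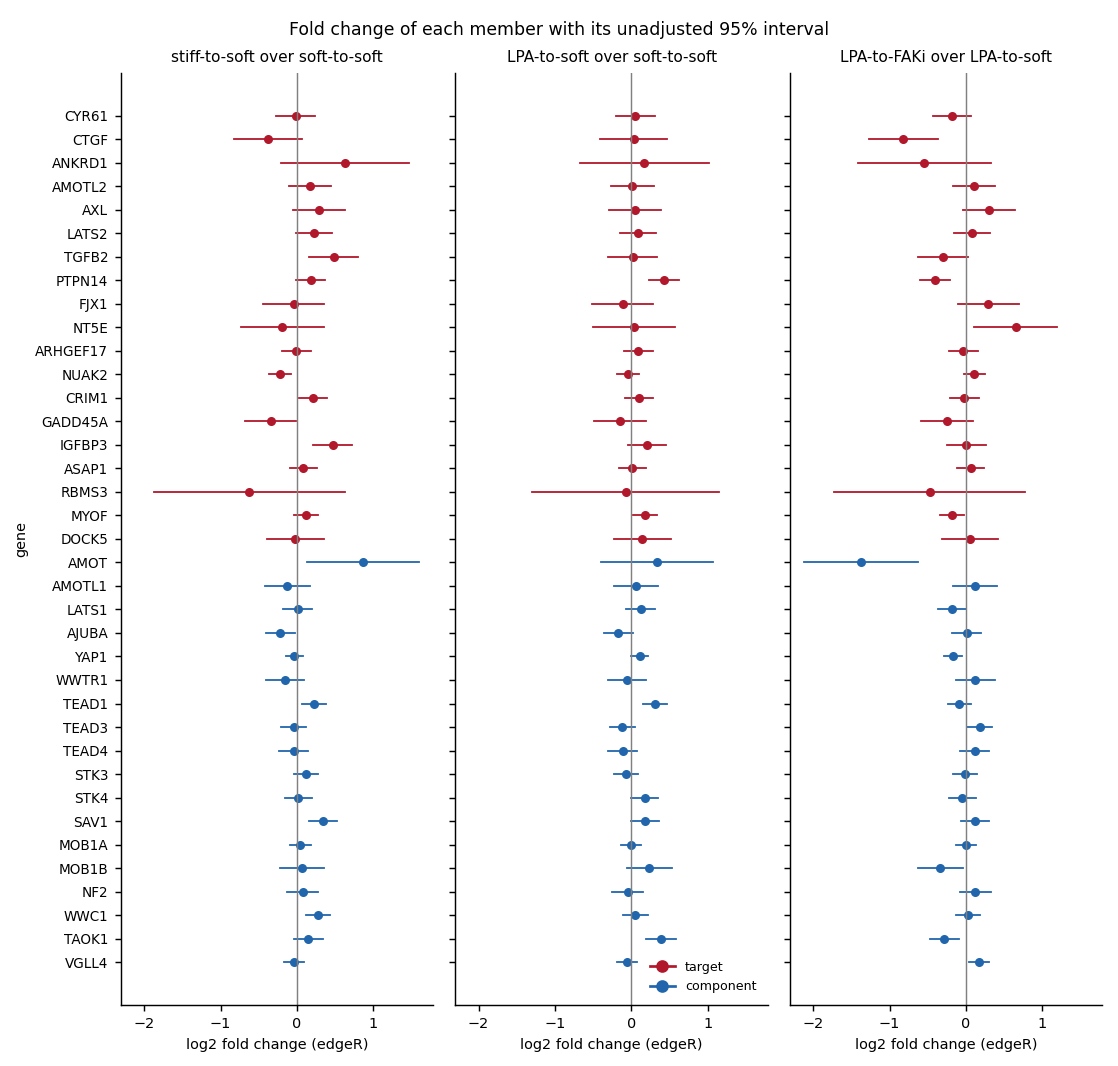
Log2 fold change of each of the 37 genes (points) with its unadjusted 95% interval (lines), in 3 comparisons that share an axis; targets are red and components blue. CTGF and AMOT lie to the left of 0 in LPA-to-FAKi over LPA-to-soft, at -0.82 and -1.37, and no gene passed the adjusted test in any panel.

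After LPA conditioning, compared with the same soft-to-soft libraries, the fitted differences of CYR61, CTGF and ANKRD1 lay near 0, with intervals that span both directions. CYR61 had 325, 280.5 and 521 CPM in LPA-to-soft, and 241, 327 and 552 CPM in soft-to-soft (log2 fold change 0.05, interval -0.21 to 0.30, edgeR adjusted p = 0.935). CTGF had 176, 89.1 and 269 CPM in LPA-to-soft, and 122, 109 and 329 CPM in soft-to-soft (0.03, interval -0.42 to 0.47, edgeR adjusted p = 0.984). ANKRD1 had 1.32, 4.57 and 6.63 CPM in LPA-to-soft, and 0.629, 5.63 and 6.73 CPM in soft-to-soft (0.17, interval -0.68 to 1.01, edgeR adjusted p = 0.933). Without LPA-to-soft replicate 1 the CYR61 and CTGF values were -0.12 and -0.36. None of the 37 genes passed the test, nor did any of all genes tested (0%). Without adjustment 4 of the 37 had p under 0.05, against 7.97% of all genes, and DESeq2 called 3, PTPN14, TEAD1 and TAOK1, and 0.531% of all genes. Fold changes were above 0 for 15 targets and below 0 for 4, with a median of 0.05, and above 0 for 10 components and below 0 for 8, with a median of 0.06, beside -0.01 over all genes.

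PTPN14, which is both a YAP target and a YAP inhibitor, had the largest difference among targets. It had 63.4, 65.3 and 57.3 CPM in LPA-to-soft, and 46.2, 51.8 and 40.9 CPM in soft-to-soft, so the groups did not overlap (background 2.64%). The log2 fold change was 0.43 ± 0.09 (SE), with an interval of 0.23 to 0.62 and an edgeR adjusted p of 0.301. The kinase TAOK1, which activates the MST kinases, had 54.6, 67.9 and 41.8 CPM in LPA-to-soft, and 40.1, 48.3 and 36.1 CPM in soft-to-soft (0.39 ± 0.09, SE; edgeR adjusted p = 0.353). TEAD1 had 70.1, 92.1 and 66.5 CPM in LPA-to-soft, and 52.9, 79.6 and 53.1 CPM in soft-to-soft (0.31 ± 0.07, SE; edgeR adjusted p = 0.353). Both genes were higher in 3 of 3 replicate numbers while their groups overlapped. YAP1 had 184, 189 and 173 CPM in LPA-to-soft, and 168, 174 and 164 CPM in soft-to-soft (0.11 ± 0.05, SE; edgeR adjusted p = 0.645). WWTR1 had 92.5, 99.4 and 91.4 CPM in LPA-to-soft, and 83.7, 131 and 84.7 CPM in soft-to-soft (interval -0.31 to 0.19). MOB1B, a LATS partner, lay wholly above in LPA-to-soft, as PTPN14 did, and the LATS-binding LIM protein AJUBA wholly below (background 2.18%), without passing the test. Values were higher in 3 of 3 numbers for 9 of the 37 genes (background 15.8%) and lower for 6 (background 18.4%).

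**Figure D4:**
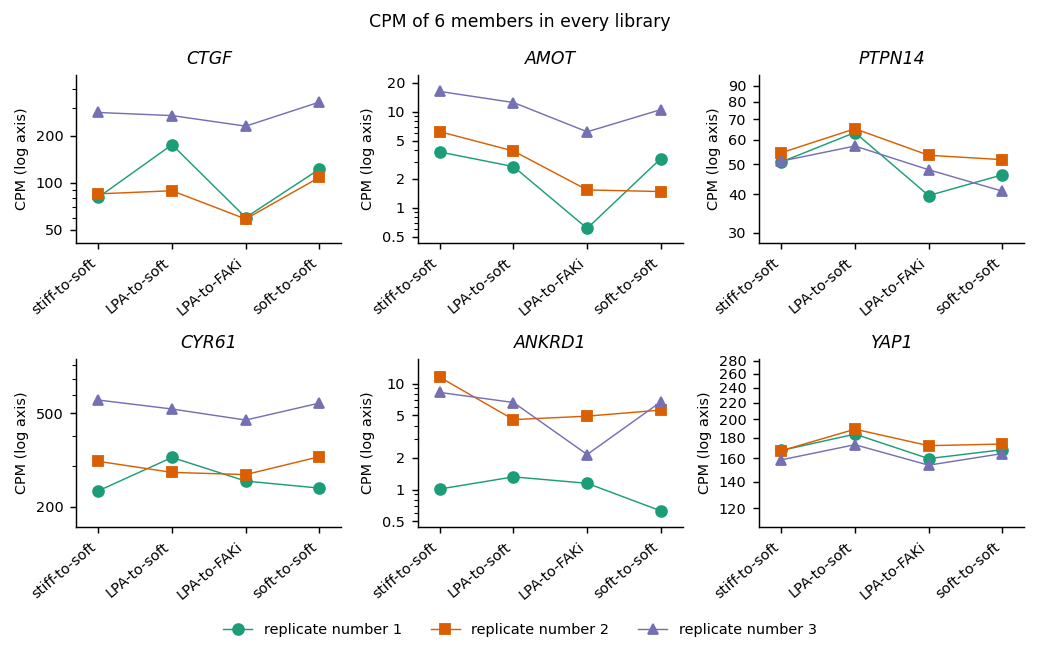
CPM (log axis, scaled separately for each gene) of CTGF, AMOT, PTPN14, CYR61, ANKRD1 and YAP1 in the 4 conditions; points are libraries and lines join the libraries of 1 replicate number. CTGF is lowest in LPA-to-FAKi in each of the 3 replicate numbers, and PTPN14 and YAP1 are highest in LPA-to-soft in each.

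With FAK inhibition after LPA conditioning, CTGF and AMOT stood below their LPA-to-soft level in each replicate number, without passing the test. CTGF had 60.1, 58.8 and 231 CPM in LPA-to-FAKi, and 176, 89.1 and 269 CPM in LPA-to-soft. It was lowest in LPA-to-FAKi of all 4 conditions in each of the 3 replicate numbers, although the groups overlapped, since replicate 3 lay above LPA-to-soft replicates 1 and 2. The log2 fold changes within numbers 1, 2 and 3 were -1.55, -0.60 and -0.22, and the fitted value was -0.82 ± 0.20 (SE), with an interval of -1.27 to -0.37 and an edgeR adjusted p of 0.0853. Leaving out LPA-to-soft replicate 1 moved it to -0.45. AMOT had 0.611, 1.54 and 6.20 CPM in LPA-to-FAKi, from counts of 48, 189 and 492, and 2.69, 3.91 and 12.5 CPM in LPA-to-soft, from counts of 296, 407 and 1499. It was lower in 3 of 3 numbers, at log2 differences of -2.10, -1.34 and -1.01 and a fitted -1.37 ± 0.34 (SE; interval -2.12 to -0.63; edgeR adjusted p = 0.0853).

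PTPN14 and YAP1 were lower in LPA-to-FAKi without overlap, as was MOB1B (background 5.4%), and none of the 37 genes was wholly higher (background 5.95%). PTPN14 had 39.6, 53.5 and 48.0 CPM in LPA-to-FAKi, and 63.4, 65.3 and 57.3 CPM in LPA-to-soft, a log2 fold change of -0.40 ± 0.09 (SE; interval -0.60 to -0.21; edgeR adjusted p = 0.0757). YAP1 had 159.7, 172 and 154 CPM in LPA-to-FAKi, and 184, 189 and 173 CPM in LPA-to-soft, a small difference of -0.17 ± 0.05 (SE; edgeR adjusted p = 0.109) that was alike in numbers 1, 2 and 3, at -0.20, -0.14 and -0.17. CYR61 had 258, 275 and 468 CPM in LPA-to-FAKi, and 325, 280.5 and 521 CPM in LPA-to-soft (-0.18 ± 0.12, SE; interval -0.44 to 0.07; edgeR adjusted p = 0.374). ANKRD1 had 1.15, 4.93 and 2.14 CPM in LPA-to-FAKi, and 1.32, 4.57 and 6.63 CPM in LPA-to-soft, a difference of -0.54 ± 0.40 (SE; edgeR adjusted p = 0.445) that was -0.06 without LPA-to-FAKi replicate 3. WWTR1 had 109, 111 and 89.9 CPM in LPA-to-FAKi, and 92.5, 99.4 and 91.4 CPM in LPA-to-soft (0.13 ± 0.11, SE; edgeR adjusted p = 0.55).

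Not all targets lay on the same side. NT5E, the cell surface enzyme that makes adenosine, had 111, 114 and 41.8 CPM in LPA-to-FAKi, and 48.4, 82.5 and 35.4 CPM in LPA-to-soft (0.65 ± 0.25, SE; edgeR adjusted p = 0.158), higher in 3 of 3 numbers. Of the targets, 9 had a log2 fold change above 0 and 10 below, with a median of -0.02, and of the components 10 lay above and 8 below, with a median of 0.005. Values were higher in 3 of 3 numbers for 9 of the 37 (background 22.9%) and lower for 10 (background 22.4%). None of the 37 genes and none of all genes tested (0%) passed the adjusted test in edgeR. Without adjustment 10 of the 37 had p under 0.05, against 22.3% of all genes. DESeq2 called 4 of the 37, CTGF, PTPN14, AMOT and YAP1, all lower in LPA-to-FAKi, and 7.97% of all genes. PTPN14 and AMOT also passed in edgeR without soft-to-soft replicate 2 (edgeR adjusted p = 0.04 and 0.0297) and without soft-to-soft replicates 1 and 2 (0.0499 and 0.0375). These libraries belong to neither group, the share of all genes called was then 4.05% and 1.24%, and the cause of the added calls was not tested. Over 18 alternative settings the log2 fold change lay between -1.63 and -1.08 for AMOT, between -1.04 and -0.45 for CTGF and between -0.47 and -0.29 for PTPN14.

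Against untreated soft-to-soft cells, CTGF was again lower in LPA-to-FAKi. This comparison shares its LPA-to-FAKi libraries with the one above, and its soft-to-soft libraries with the first comparisons. With 60.1, 58.8 and 231 CPM in LPA-to-FAKi, and 122, 109 and 329 CPM in soft-to-soft, the log2 fold change was -0.79 ± 0.20 (SE; interval -1.24 to -0.35; edgeR adjusted p = 0.106), lower in 3 of 3 numbers. Without LPA-to-soft replicate 1, a library of neither group, CTGF passed (-0.82 ± 0.09, SE; edgeR adjusted p = 0.0125), as did 0.766% of all genes. AMOT had 0.611, 1.54 and 6.20 CPM in LPA-to-FAKi, and 3.27, 1.48 and 10.6 CPM in soft-to-soft (-1.04 ± 0.35, SE; edgeR adjusted p = 0.183), lower in numbers 1 and 3 and level in number 2. Without soft-to-soft replicate 2, AXL (0.61), FJX1 (0.50), NT5E (1.06) and AMOT (-1.43) passed, as did 1.94% of all genes. The fit without both soft-to-soft replicates 1 and 2 keeps only replicate 3 of that condition and cannot decide calls here. AMOT stood at -0.63 without soft-to-soft replicate 1. In all libraries none of the 37 passed in edgeR, against 0.564% of all genes. Without adjustment 7 had p under 0.05 (background 16.6%), and DESeq2 called 0 (background 4.56%). Values were higher in 3 of 3 numbers for 7 genes (background 17.4%) and lower for 6 (background 17.8%), and AJUBA was wholly lower (background 3.12%) while none was wholly higher (background 3.04%). CYR61, ANKRD1, YAP1 and WWTR1 had log2 fold changes of -0.13, -0.38, -0.06 and 0.07, with edgeR adjusted p-values of 0.594, 0.675, 0.581 and 0.804.

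Between the learned conditions, stiff-to-soft and LPA-to-soft, none of the 37 genes passed, against 0.00648% of all genes, while 8 had an unadjusted p under 0.05 (background 9.42%) and DESeq2 called 0 (background 0.46%). YAP1, PTPN14 and ARHGEF17 were lower in every stiff-to-soft library (background 3.19%), with edgeR adjusted p-values of 0.496, 0.497 and 0.718, and none of the 37 was wholly higher (background 2.66%). Values were higher in 3 of 3 numbers for 10 genes (background 18.1%) and lower for 6 (background 16.9%). AMOT differed by 0.53 ± 0.32 (SE) and the RNA-binding protein RBMS3 by -0.55 ± 0.57 (SE), the largest values of their lists, with edgeR adjusted p-values of 0.614 and 0.769. RBMS3 had only 10 to 89 counts per library, and its value ranged from -1.10 to -0.07 when 1 library was left out. CYR61, CTGF, ANKRD1 and WWTR1 had log2 fold changes of -0.07, -0.41, 0.47 and -0.10, with edgeR adjusted p-values of 0.869, 0.552, 0.695 and 0.788, and CTGF stood at -0.04 without LPA-to-soft replicate 1.

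Taking the learned class as 6 libraries against the 6 not learned ones, none of the 37 genes passed, against 0.00648% of all genes. This fit held class and replicate number, so differences between the conditions within a class are part of its scatter. As a contrast of the 4 conditions, 0 of the 37 genes and 7 of all 15437 genes passed in edgeR. Without adjustment 9 of the 37 had p under 0.05, against 9.94% of all genes, and DESeq2 called PTPN14 alone (adjusted p = 0.0494 in DESeq2 and 0.266 in edgeR), beside 0.836% of all genes. AMOT ranged from 2.69 to 16.3 CPM around a median of 5.06 in learned libraries, and from 0.611 to 10.6 CPM around a median of 2.40 in not learned ones. Its class means within a number differed by 1.16, 1.70 and 0.82 on the log2 scale, higher in learned in each, and the fitted value was 1.08 ± 0.32 (SE; interval 0.38 to 1.78; edgeR adjusted p = 0.321). PTPN14 ranged from 50.9 to 65.3 CPM in learned libraries (median 55.9) and from 39.6 to 53.5 CPM in not learned ones (median 47.1), a log2 fold change of 0.30 ± 0.08 (SE). CYR61 ranged from 234 to 569 CPM in learned libraries (median 319) and from 241 to 552 CPM in not learned ones (median 301), and its interval was -0.10 to 0.26. CTGF ranged from 80.9 to 282 CPM in learned libraries (median 132) and from 58.8 to 329 CPM in not learned ones (median 115), and its interval was -0.31 to 0.66. ANKRD1 ranged from 1.01 to 11.5 CPM in learned libraries (median 5.60) and from 0.629 to 6.73 CPM in not learned ones (median 3.53), and differed by 0.59 ± 0.28 (SE; edgeR adjusted p = 0.513). YAP1 and WWTR1 differed by 0.07 and -0.14, with edgeR adjusted p-values of 0.656 and 0.577. Of all 37 genes, 16 were higher in learned in 3 of 3 numbers (background 19.1%) and 7 lower (background 20.8%), but in none were the classes free of overlap (background 0.0972% higher and 0.0389% lower).

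The remaining kinases, cofactors and targets are given by their range over the 12 libraries. LATS1 lay between 33.4 and 49.0 CPM, LATS2, its paralog and a YAP target, between 16.4 and 24.8 CPM, and MOB1A, the second LATS partner, between 66.9 and 84.0 CPM. The MST kinases lay between 32.6 and 46.8 CPM for STK3 and between 43.4 and 60.9 CPM for STK4. NF2, the upstream tumour suppressor merlin, lay between 53.8 and 84.3 CPM, and TEAD3 between 41.3 and 56.7 CPM. Among targets, the RacGEF DOCK5 lay between 16.1 and 30.1 CPM, the membrane repair protein MYOF between 398 and 534 CPM, the angiomotin AMOTL2 between 139 and 282 CPM, the stress protein GADD45A between 83.0 and 162 CPM, the transmembrane protein CRIM1 between 63.3 and 104 CPM and FJX1 between 132 and 245 CPM. None of these 13 genes passed a comparison of conditions in all 12 libraries.

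A wider list was read in the same way. Of 12 further YAP targets, all 12 were tested, and of 41 further regulators, 40 were. None passed any comparison of conditions in edgeR, where between 0% and 0.583% of all genes did, so few calls would be found in most lists of this size. DESeq2 calls in this list were not counted. The lowest edgeR adjusted p was 0.0847 for MAP4K4, a kinase that can activate LATS. Its log2 fold change was 0.53 ± 0.12 (SE) in LPA-to-FAKi over soft-to-soft. By replicate number, 8 of the 12 targets and 22 of the 40 regulators passed, beside 52.3% of all genes.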

How the data were processed

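RNA of 12 Cal27 libraries was measured by stranded RNA sequencing (per the labels' protocols). The authors deposited whole-number read counts per gene symbol. The submitters' processing notes list cutadapt, FastQC, STAR, HTSeq, DESeq2 and build hg19, and neither annotation nor strand setting is given in the sources used here. A table of normalized values was not used. Every count column matched a sample, and no 2 columns were identical.

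The tests used the quasi-likelihood method of edgeR 4.0.16 under R 4.3.3 (TMM scaling, filterByExpr by condition, glmQLFit and glmQLFTest), with condition and replicate number in 1 model of all 12 libraries. Learned against not learned was fitted apart, with class in place of condition. P-values were Benjamini-Hochberg adjusted over 15437 genes, with calls at 0.05. CPM used TMM library sizes. Pair values are differences of log2 CPM with a prior count of 2. Replicate number was a term because the genes were to be read paired by number. Checked by their deviations from condition means, same-numbered libraries correlated at 0.312 to 0.659 over 18 pairs, and others at -0.517 to 0.037 over 36 pairs. Alternatives were no replicate block, RLE scaling, DESeq2 1.42.0, no low-count filter, halved counts for the 10 mostly even libraries, and each library or soft-to-soft replicates 1 and 2 left out.

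The genes and lists were chosen with earlier results of these data known. Named with full values were CYR61, CTGF, ANKRD1, YAP1 and WWTR1, any gene called, and the target and component with the largest difference in each comparison. Others named were chosen after their values were seen. The table holds 28 symbols that look like dates, none among these genes. Promoters came from RefSeq.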

Additional observations from a re-analysis of the deposited data

Results flagged for a closer look

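MOB1B, a partner of the LATS kinases, had 1 library far from the other learned ones. Stiff-to-soft replicate 1 stood at 6.39 CPM, against 9.11 to 9.75 CPM in the other 5 learned libraries, a gap of 0.81 of the group's range where 0.625 is the 95% critical value for 6 samples. In all, 74 groups of 6 libraries were examined in this way, and 1 was flagged. Chance flags about 1 in 20 where libraries are independent draws from a single normal distribution. The libraries of a class differ in condition and replicate number, so that rate need not hold here.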

How the results depend on the processing

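Without the replicate block no gene was called in any comparison of conditions, neither among the 37 genes nor among all genes, so the counts of 33 over the 4 conditions, 90 in stiff-to-soft over soft-to-soft, 87 in LPA-to-FAKi over soft-to-soft, 1 in stiff-to-soft over LPA-to-soft and 1 in learned over not learned all became 0. DESeq2 called 1294, 456, 704, 71 and 129 genes in these, and 82 in LPA-to-soft over soft-to-soft and 1231 in LPA-to-FAKi over LPA-to-soft, where edgeR called 0. Of the 37 genes it called 8, 4, 0, 0 and 1, and 3 and 4 in the last pair. Without a low-count filter 208 genes were called over the 4 conditions, AMOT among them as 1 of the 37, 158 in stiff-to-soft over soft-to-soft, 206 in LPA-to-FAKi over soft-to-soft and 25 in LPA-to-FAKi over LPA-to-soft. RLE scaling gave 56 over the 4 conditions and 0 between stiff-to-soft and LPA-to-soft, and halved counts gave 59 over the 4 conditions. Without soft-to-soft replicates 1 and 2, 61 genes were called over the 4 conditions (AMOT as 1 of the 37), 0 in both comparisons of stiff-to-soft and LPA-to-FAKi with soft-to-soft, 202 in LPA-to-FAKi over LPA-to-soft (2 of the 37, PTPN14 and AMOT) and 4 in learned over not learned. Learned over not learned as a contrast of the 4 conditions gave 7. The cause of these changes was not tested.

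Leaving out 1 library at a time, the number called among the 37 genes ranged from 0 to 3 over the 4 conditions, 0 to 1 in stiff-to-soft over soft-to-soft, 0 to 2 in LPA-to-FAKi over LPA-to-soft and 0 to 4 in LPA-to-FAKi over soft-to-soft, with the highest count of 3, 2 and 4 without soft-to-soft replicate 2. It stayed 0 in LPA-to-soft over soft-to-soft, stiff-to-soft over LPA-to-soft and learned over not learned, and was 20 to 26 by replicate number. Over all genes the counts ranged from 1 to 271 over the 4 conditions, 7 to 228 in stiff-to-soft over soft-to-soft, 0 to 639 in LPA-to-FAKi over LPA-to-soft, 0 to 307 in LPA-to-FAKi over soft-to-soft, 0 to 3 between stiff-to-soft and LPA-to-soft, 0 to 4 in learned over not learned and 6595 to 7931 by replicate number. RBMS3 had under 100 counts in every library.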
